A study of Mus musculus with 11 samples.

Results

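Open chromatin of CD8 T cells after 9 days of an experiment that included culture was compared with that of antigen-experienced CD8 T cells taken from the spleen. All 8 day 9 libraries and the 1 antigen-experienced library of the series entered the comparison, 9 of 11 libraries in all. Every library came from mouse CD8 T cells of the spleen with a YFP reporter of Tcf7, which encodes transcription factor TCF-1, and was made by ATAC-seq, in which a transposase cuts and tags accessible DNA. The antigen-experienced cells were CD44+ CD62L+ and YFP+. A first sort on YFP at day 3 preceded a further culture of the day 9 cells and their second sort on day 9. They were YFP-high at both sorts (high-to-high, 2 libraries), YFP-low at both sorts (low-to-low, 3 libraries) or YFP-low first and YFP-high later (low-to-high, 3 libraries). A naive library (CD44- CD62L+ YFP+ splenocytes) and an effector library (cells activated ex vivo for 3 days) served only to show where else a region was open. The labels name no culture medium or cytokine, no age and no number of mice, nor whether each replicate had its own animal or culture, so that the spread between libraries may be technical. The antigen-experienced side is 1 library, so no biological variation of that group was measured, and time, culture, stimulation and the sort gates cannot be told apart.

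TCF-1 is needed for the renewal of memory T cells and is high in naive and central memory cells, while effector cells silence it. Antigen-experienced cells that keep CD62L are the central memory-like pool of the spleen. Accessible sites include promoters, which are open in most cell types, and distal sites such as enhancers, which differ between cell states.

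Merging peaks of the 11 libraries with 1 bp or more in common gave 111041 regions, and each region took the strongest peak's normalized tag count (tags per 10 M tags of the library) in each library. A total of 31266 regions had a peak in all 9 libraries. For these, log2(value + 1) was centred on each library's median over the same regions, and a region was called higher or lower at day 9 when the antigen-experienced library lay below or above all 8 day 9 libraries. A region with a peak in all 8 day 9 libraries and none in the antigen-experienced library was called gained, and a region with a peak in that library and in none of the 8 was called lost. In every region called higher or lower the 8 day 9 libraries thus lie on 1 side of the antigen-experienced one after centring, which only restates the call. With 1 library on one side these calls carry no p-value. As a second reading, limma was fitted over all 31266 regions with a spread pooled over the day 9 groups, which assumes that the lone library varies like a day 9 library.

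Promoters of 6 genes show what the differing regions look like in sequence. They were chosen after their values were seen: 3 that were more open at day 9 (Srxn1, Gzmb and Serpina3g), 2 that were less open (Fer and Isg15), and Tnfaip3, where the 2 kinds of cell had their peaks side by side. Each is RefSeq's window from 250 bases before to 50 bases after the listed start (mm10), and the capitals mark AP-1 sites (TGANTCA) for Srxn1 and Gzmb, a STAT site (TTCNNNGAA) for Serpina3g, CCAAT boxes (CCAAT) for Fer, overlapping interferon response elements (GAAA, any 2 bases, GAAA) for Isg15 and an NF-kB site (GGGANTTCC, or the same with 1 more T) for Tnfaip3, searched on both strands.
Srxn1, chr2:152105274-152105573, plus strand: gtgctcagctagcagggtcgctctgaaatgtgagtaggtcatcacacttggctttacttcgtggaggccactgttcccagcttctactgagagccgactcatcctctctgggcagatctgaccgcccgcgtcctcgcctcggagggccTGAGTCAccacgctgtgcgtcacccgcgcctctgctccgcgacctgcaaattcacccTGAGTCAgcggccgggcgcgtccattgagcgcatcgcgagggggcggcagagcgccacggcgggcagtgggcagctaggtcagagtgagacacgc
Gzmb, chr14:56262285-56262584, minus strand: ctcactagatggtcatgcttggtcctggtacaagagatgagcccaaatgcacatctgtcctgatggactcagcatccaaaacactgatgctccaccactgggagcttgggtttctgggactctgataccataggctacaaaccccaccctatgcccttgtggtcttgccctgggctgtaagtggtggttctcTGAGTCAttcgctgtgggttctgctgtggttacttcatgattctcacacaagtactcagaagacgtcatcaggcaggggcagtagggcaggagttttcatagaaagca
Serpina3g, chr12:104235897-104236196, plus strand: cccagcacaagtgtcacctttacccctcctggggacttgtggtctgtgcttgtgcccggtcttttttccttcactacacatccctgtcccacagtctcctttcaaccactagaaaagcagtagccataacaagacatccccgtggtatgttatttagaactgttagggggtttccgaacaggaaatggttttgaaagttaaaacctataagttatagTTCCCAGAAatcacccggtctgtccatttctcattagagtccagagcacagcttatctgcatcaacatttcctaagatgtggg
Fer, chr17:63863731-63864030, plus strand: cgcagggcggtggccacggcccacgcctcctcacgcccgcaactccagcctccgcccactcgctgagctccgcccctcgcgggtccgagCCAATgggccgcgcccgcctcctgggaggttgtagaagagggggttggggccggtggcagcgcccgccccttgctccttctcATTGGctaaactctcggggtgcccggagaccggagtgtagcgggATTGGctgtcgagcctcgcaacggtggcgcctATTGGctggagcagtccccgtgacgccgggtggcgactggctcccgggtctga
Isg15, chr4:156200769-156201068, minus strand: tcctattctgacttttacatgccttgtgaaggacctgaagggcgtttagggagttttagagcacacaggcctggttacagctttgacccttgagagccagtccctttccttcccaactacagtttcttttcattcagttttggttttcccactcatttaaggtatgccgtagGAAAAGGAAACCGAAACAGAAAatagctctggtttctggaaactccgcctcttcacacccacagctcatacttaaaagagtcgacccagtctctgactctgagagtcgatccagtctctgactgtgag
Tnfaip3, chr10:19015361-19015660, minus strand: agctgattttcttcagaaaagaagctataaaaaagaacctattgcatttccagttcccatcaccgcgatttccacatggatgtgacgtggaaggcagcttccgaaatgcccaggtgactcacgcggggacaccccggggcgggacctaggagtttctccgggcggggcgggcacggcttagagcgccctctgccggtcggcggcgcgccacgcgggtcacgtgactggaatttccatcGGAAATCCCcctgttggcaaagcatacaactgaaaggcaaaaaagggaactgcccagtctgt

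Srxn1 encodes sulfiredoxin, which restores oxidised peroxiredoxins. Its promoter region held 4.9 in the antigen-experienced library and 16.2, 18.35 and 27.4 (lowest, median and highest) in the 8 day 9 libraries, a centred log2 difference of 2.27 (SD of the 8 libraries 0.17). The naive library had no peak there and the effector library held 25.5. Its AP-1 sites begin 102 and 45 bases before the start. At Gzmb, the gene of the cytotoxic protease granzyme B, the AP-1 site begins 58 bases before the start, and the region that covers it is described with the effector genes below. Serpina3g, a protease inhibitor of T cells, held 8.95 in the antigen-experienced library against 23.3, 28.0 and 34.4 at day 9 (difference 2.06, SD 0.14), and its STAT site begins 33 bases before the start. Fer, a tyrosine kinase gene, went the other way, from 61.4 in the antigen-experienced library to 6.48, 7.56 and 10.3 at day 9 (difference -2.29, SD 0.21). The Fer window holds 4 CCAAT boxes.

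Of 20886 windows in the RefSeq table, 7.01% held an AP-1 site, and of the 5987 windows covered by at least 100 bp of a region called in all 9 libraries, 4.08% did. The share was 7.48% in the 361 windows of regions that were higher at day 9 and 3.70% in the 4157 windows of regions that were lower. RUNX sites (TGTGGT) stood in 20.2% and 11.8% of these windows, against 12.8% of covered windows. ETS sites (CCGGAA) stood in 15.5% of the higher and 37.8% of the lower windows, against 35.4% of covered windows, and CCAAT boxes in 35.2% and 47.4%, against 44.0%. STAT sites stood in 7.78% of all windows, interferon response elements in 3.37%, NF-kB sites in 2.28% and CCAAT boxes in 38.3%. In the higher and lower windows the shares were 8.03% and 7.02% for STAT sites, against 7.1% of covered windows. For NF-kB sites they were 3.88% and 3.27%, against 3.36%. For interferon response elements they were 4.71% and 2.84%, against 3.09%, so the Isg15 promoter is not typical of its class in this. These are shares of letter matches, with no test, and a match is not a bound site.

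Regions higher at day 9 numbered 8308 (26.6% of those tested) and regions lower at day 9 11742 (37.6%). Together 64.1% of the shared regions lay outside the day 9 range. Most differences were small: the range of the 8 day 9 libraries had a median width of 0.50 on the log2 scale, and the antigen-experienced library lay outside it by a median of 0.35 in higher and 0.20 in lower regions. Of the called regions 22.3% lay within 0.1 of the edge of the range, and 38.2% of those not called lay within 0.1 inside it. By at least 1 on the log2 scale beyond the range, 1024 regions were higher (3.28%) and 156 lower (0.499%) at day 9. limma called 5346 regions higher (17.1%) and 6115 lower (19.6%) at an adjusted p under 0.05, 36.7% in all.

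The direction of a call is relative to the typical shared region. The antigen-experienced library had 15.75% of its tags in peaks and the day 9 libraries 9.01 to 12.47%, and its median log2 value over the shared regions was 4.87 against 4.21 to 4.67. Without centring, 2770 regions were higher and 20778 lower, so that 11.8% of the calls were higher against 41.4% with centring, and with centring on the upper quartile it was 71% (12559 higher, 5126 lower). Without centring the median difference over all regions was -0.59, with 8.86% of all regions higher and 66.5% lower, and on the upper quartile 40.2% were higher and 16.4% lower. These scalings shift all regions together, so counts of a gene list on either are read against these shares. The share of tags in peaks does not overlap between the 2 sides, and with it as a covariate limma called 106 regions higher and 67 lower. Their part in the calls was not tested. The antigen-experienced library had 23.5 M tags, and the day 9 libraries from 20.8 M tags (low-to-high replicate 3) upward.

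Direction also followed the level of a region. When the regions were put into 4 equal bins by their mean over the 9 libraries, 6.65% were higher and 69.5% lower at day 9 in the strongest bin, and 41.4% higher and 15% lower in the weakest. The scatter of day 9 against antigen-experienced values shows this as a cloud that lies above the diagonal at low and below it at high values. Cyclic loess, a normalization that removes such a dependence on level, left a median difference of -0.02 in the strongest and the weakest bin, and limma then called 4702 regions higher (15%) and 2993 lower (9.57%). Gene groups other than the markers of other cell types are therefore given below on both scales, with loess as counts or as the median difference. The median difference does not show how many single regions of a list differed, in either direction.

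**Figure D1:**
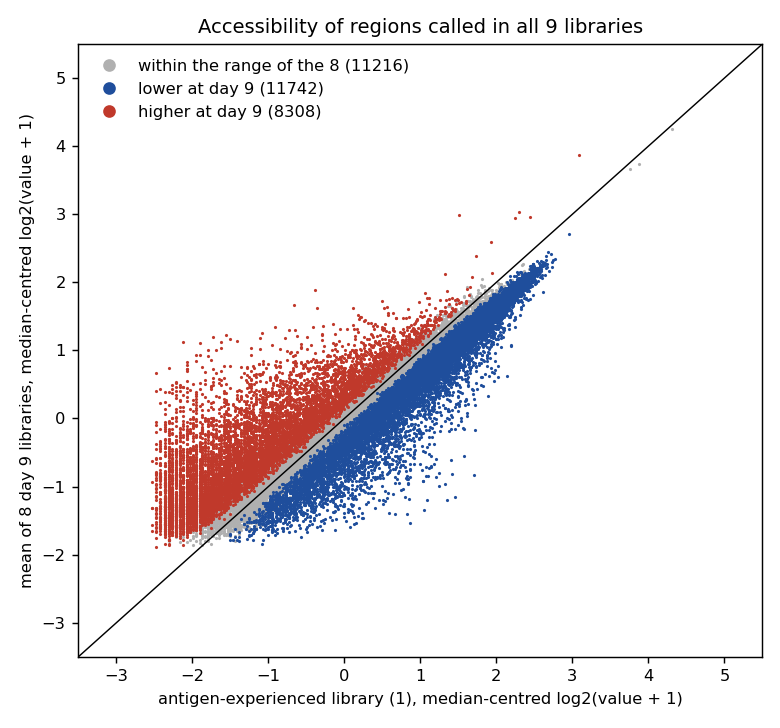
Median-centred log2(value + 1) of the antigen-experienced library (x axis) and mean of the 8 day 9 libraries (y axis) for the 31266 regions called in all 9 libraries, with the diagonal of equal values. Red points (8308) are regions where the antigen-experienced library lay below all 8 day 9 libraries, blue points (11742) where it lay above all 8, and grey points the rest. Weak regions lie mostly above the diagonal and strong regions mostly below it.

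Of the regions raised by at least 1 beyond the range, 82.5% lay over 10 kb from a listed gene start, against 58.3% of all tested regions and 90.7% of those lowered by as much. The 10 largest, 1 per gene, were assigned to Rubcnl, Fggy, Herpud2, Unc5c, Unc5b, Map6, Hira, Hivep3, Prkacb and Cish. Of these 10, 8 had a peak in the effector library and 2 in the naive library. Of all 1024 regions raised by at least 1 beyond the range, 68.2% had a peak in the effector library and 68.2% in the naive library. The region nearest to Rubcnl (chr14:75005838-75006103, 9884 bp from the gene), which encodes a regulator of autophagy, held 5.75 in the antigen-experienced library and 36.2, 45.15 and 54.6 as lowest, median and highest of the 8 day 9 libraries. The centred difference was 3.24 (SD of the 8 libraries 0.22; limma adjusted p 5.19e-16). The lowest day 9 library lay far above the antigen-experienced one, the effector library held 28.9 and the naive library had no peak. Inside Unc5b and Unc5c, genes of netrin receptors, the antigen-experienced library held 6.6 and 7.88, and the day 9 libraries 30.7 to 57.4 and 37.2 to 59.8. Inside Hivep3, a zinc finger gene that binds kappa B sites, it held 6.82 against 34.4, 38.65 and 45.5 (difference 2.84, SD 0.05).

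Hivep3 was also among the genes with the most gained regions, with 7, beside 6 higher and 2 lower regions of 9 tested. Maml3, a coactivator of Notch signalling, likewise had 7 gained and 8 higher of 13 tested regions. Gnaq, a G protein subunit, had 6 gained regions and 2 of 2 tested regions higher, and Fstl4 and Emsy had 6 gained regions each. The genes with the most higher regions were Atxn1 (12 of 17 tested), Abr (11 of 13), Ust (11 of 15), Atp10a (9 of 14) and Babam2 (9 of 12).

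Of the 156 regions lowered by at least 1 beyond the range, 95.5% had a peak in the naive library, near the 95.2% of all tested regions, and 48.7% in the effector library, against 77.8%. The 10 largest were assigned to Fam234a, Gnptab, Psmg1, Fer, Icos, Ube2d1, Chrd, Tnfrsf9, G3bp2 and 1 predicted gene. Of these, 8 had a peak in the naive and 3 in the effector library. Inside Fam234a (chr17:26234482-26234832) the antigen-experienced library held 73.5 and the day 9 libraries 5.25, 8.255 and 10.7, a difference of -2.54 (SD 0.26; limma adjusted p 1.64e-10). The naive library held 38.4 there and the effector library had no peak. Inside Tnfrsf9, the gene of the costimulatory receptor 4-1BB, the antigen-experienced library held 50.7 against 5.67, 6.655 and 9.62 at day 9 (difference -2.23, SD 0.27), and neither the naive nor the effector library had a peak. The region inside Gnptab, an enzyme of lysosomal targeting, held 94.8 against 7.09 to 16.8 and was likewise absent from the naive list.

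**Figure D2:**
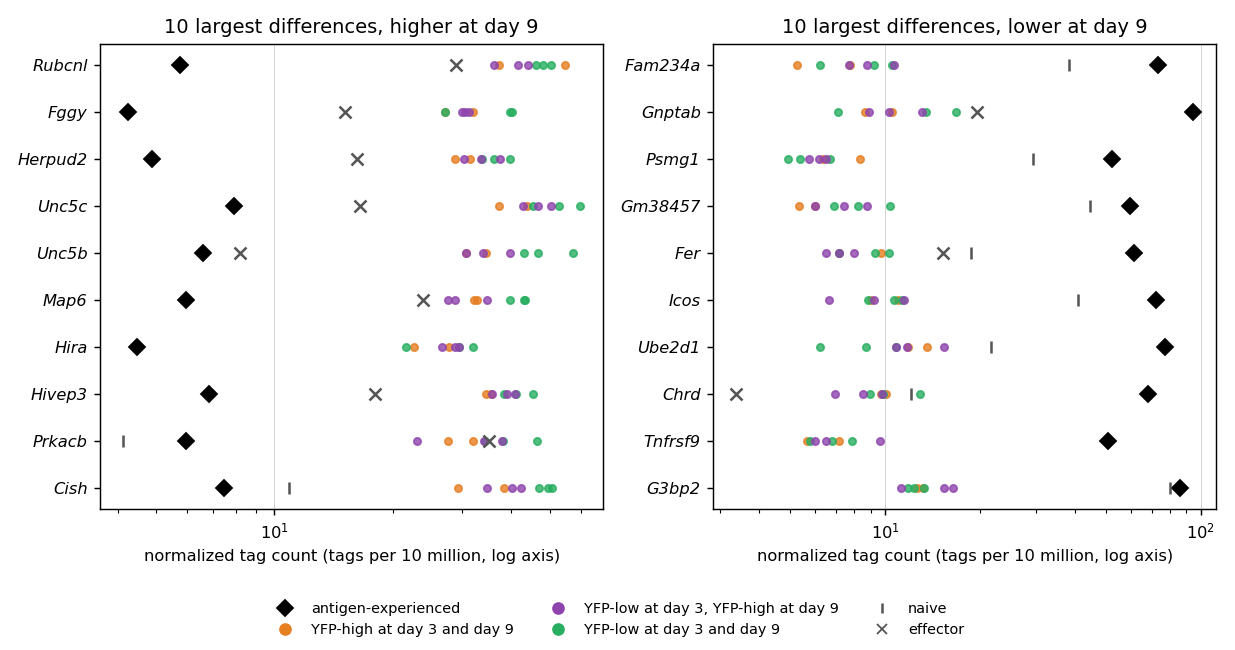
Normalized tag count (tags per 10 M tags, log axis) in each library for the regions with the 10 largest differences in each direction, named by the nearest gene. Black diamonds are the antigen-experienced library, coloured circles the 8 day 9 libraries by group, bars the naive and crosses the effector library where a peak was called. For every gene the 8 day 9 values lie on one side of the diamond, as the range rule required of the centred values.

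The genes of naive, memory and quiescent T cells were the group with the clearest direction, and it was downward. Of 174 tested regions near 24 such genes, 107 were lower at day 9 (61.5%, against 37.6% of all regions) and 18 higher (10.3%, against 26.6%), with a median difference of -0.41 (-0.09 over all regions), and limma called 84 lower and 8 higher. With cyclic loess limma called 66 lower and 11 higher (37.9% and 6.32%), and the lower calls also outnumbered the higher without centring (152 against 2) and on the upper quartile (77 against 35). Without high-to-high replicate 2, the deepest library, 108 were lower and 18 higher, though leaving a library out can only add calls. A further 48 of 326 antigen-experienced regions of the group were lost (8.55% over all regions) and 12 of 186 regions called in all 8 were gained (9.07% over all). All 4 tested regions of Tcf7 itself were lower (median -0.51), as were 9 of 11 at Satb1 (chromatin organiser of T cells), 6 of 7 at Myb (a factor of stem-like memory cells), 5 of 5 at Il6ra, 5 of 7 at Ccr7 (lymph node homing receptor), 6 of 7 at Ikzf1 and 5 of 6 at Ets1.

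The strongest of these, 70662 bp from Satb1 (chr17:51903952-51904267), held 60.1 in the antigen-experienced library and 10.8, 13.95 and 19.2 at day 9 (difference -1.55, SD 0.14; limma adjusted p 1.32e-07). The naive library held 54.5, close to the antigen-experienced one, and the effector library had no peak. Near Nsg2 the values were 65.4 against 11.6, 15.25 and 17.6, with 56 in naive and 5.83 in effector cells. All 8 day 9 libraries lay below both splenic libraries at both loci.

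Not every region of the group was lower. Bach2, a repressor that holds back effector differentiation, had 13 lower and 4 higher regions of 24, and Foxp1, a quiescence factor, 12 lower and 2 higher of 22. A region inside Foxp1 (chr6:99274584-99274937) held 21.1 in the antigen-experienced library against 29.8, 33.6 and 41.2 at day 9 (difference 1.16, SD 0.12; limma adjusted p 4.26e-07), with 14.3 in naive and 49.5 in effector cells. Another inside the same gene (chr6:99486292-99486538) held 83.7 against 11.3, 21.7 and 26.7 (difference -1.53, SD 0.58). One gene thus held regions that were higher and regions that were lower. Bcl2, the survival gene, was the exception of the group, with 6 of 8 tested regions higher and 1 lower, while 6 others were lost.

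Genes of T cell identity and receptor signalling also leaned lower, with 32 of 65 regions lower (49.2%, against 37.6% of all). Another 15 were higher (23.1%, against 26.6%), and the median difference was -0.24. On the upper quartile 32.3% were higher and 27.7% lower, against 40.2% and 16.4% of all, and with loess limma called 15 lower and 8 higher. Of 151 antigen-experienced regions 30 were lost (8.55% over all), and of 66 called in all 8 libraries 1 was gained (9.07% over all). Cd8a and Cd8b1, which encode the coreceptor that defines these cells, had 2 of 2 and 1 of 1 tested regions lower, and 1 and 2 regions lost. Inside Lck, the kinase that starts receptor signalling, a region held 82.2 in the antigen-experienced library against 19.1, 23.25 and 30.2 at day 9 (difference -1.30, SD 0.29). Runx1, which takes part in T cell development, had 6 higher and 4 lower of 12.

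Central memory and interleukin-15 response genes had 29 of 57 regions lower (50.9%, against 37.6% of all) and 8 higher (14%, against 26.6%). Their median difference was -0.20. On the upper quartile 17.5% were lower and 29.8% higher, against 16.4% and 40.2% of all regions. With loess the median difference was -0.06, close to the -0.02 over all regions, though a median does not show how many regions differed. Il2rb, the receptor chain shared by interleukin-2 and interleukin-15, had 4 of 4 tested regions lower, and the one inside the gene with the largest change held 121.2 against 34.7, 46.25 and 57.6 (difference -0.87, SD 0.17). Cd44, which marks antigen experience, had 5 of 7 lower. A region 21196 bp from Ly6c2, a surface marker of memory CD8 T cells, was one of the strongest that were higher: 82.7 in the antigen-experienced library and 112.0, 166.1 and 199.6 at day 9, a difference of 1.48 (SD 0.23). No day 9 library overlapped with the antigen-experienced one there, as the call required after centring. Interferon-stimulated genes had 0 higher and 11 lower of 20 regions (0% and 55%, against 26.6% and 37.6% of all), with a median of -0.23. Among the lower ones was the Isg15 promoter shown above, at 48.4 against 17.2, 23.65 and 29.7 (difference -0.50, SD 0.18). The upper-quartile shares were 15% higher and 20% lower, against 40.2% and 16.4% of all. With loess limma called 1 of the 20 lower, and on the upper quartile 3 were higher and 4 lower.

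Effector genes went both ways, gene by gene. Of 87 regions near 24 genes of effector differentiation and killing, 35 were higher (40.2%, against 26.6%) and 28 lower (32.2%, against 37.6%), and limma called 28 higher and 13 lower. With loess limma called 28 higher and 7 lower. On the upper quartile 46.0% were higher (40.2% of all), and without centring 21.8% were higher and 58.6% lower (8.86% and 66.5% of all). Granzyme genes were higher at 6 of 7 regions for Gzmb, 2 of 2 for Gzmc and 1 of 1 for Gzma and Gzmk. The Gzmb promoter (chr14:56262194-56262432) held 25.4 in the antigen-experienced library and 42.2, 54.55 and 67.3 at day 9, with 16.1 in naive and 32.7 in effector cells. The difference was 1.54 (SD 0.13; limma adjusted p 2.2e-10), and every day 9 library exceeded all 3 other libraries.

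Bhlhe40, a factor of cytokine production, had 4 of 4 tested regions higher and 1 gained, and the one 21502 bp from it held 7.67 against 23.7, 26.8 and 35.4 (difference 2.22, SD 0.14). Id2, an inhibitor of E proteins that favours effector cells, had 4 of 5 higher. In the other direction stood Tbx21, the gene of T-bet, the master regulator of type 1 effector cells, with 2 of 2 lower. Its region at chr11:97096144-97096451 held 52.4 in the antigen-experienced library and 7.3, 10.95 and 17.8 at day 9 (difference -1.62, SD 0.48; limma adjusted p 4.06e-06). Crtam had 3 of 3 and Runx3 2 of 4 lower. Ifng, the gene of interferon gamma, was split, with 5 higher, 5 lower and 3 gained: a region 5226 bp away held 55.6 against 14.3 to 21.5, while one inside the gene held 21.1 to 31.4 at day 9 and had no peak in the antigen-experienced library.

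**Figure D3:**
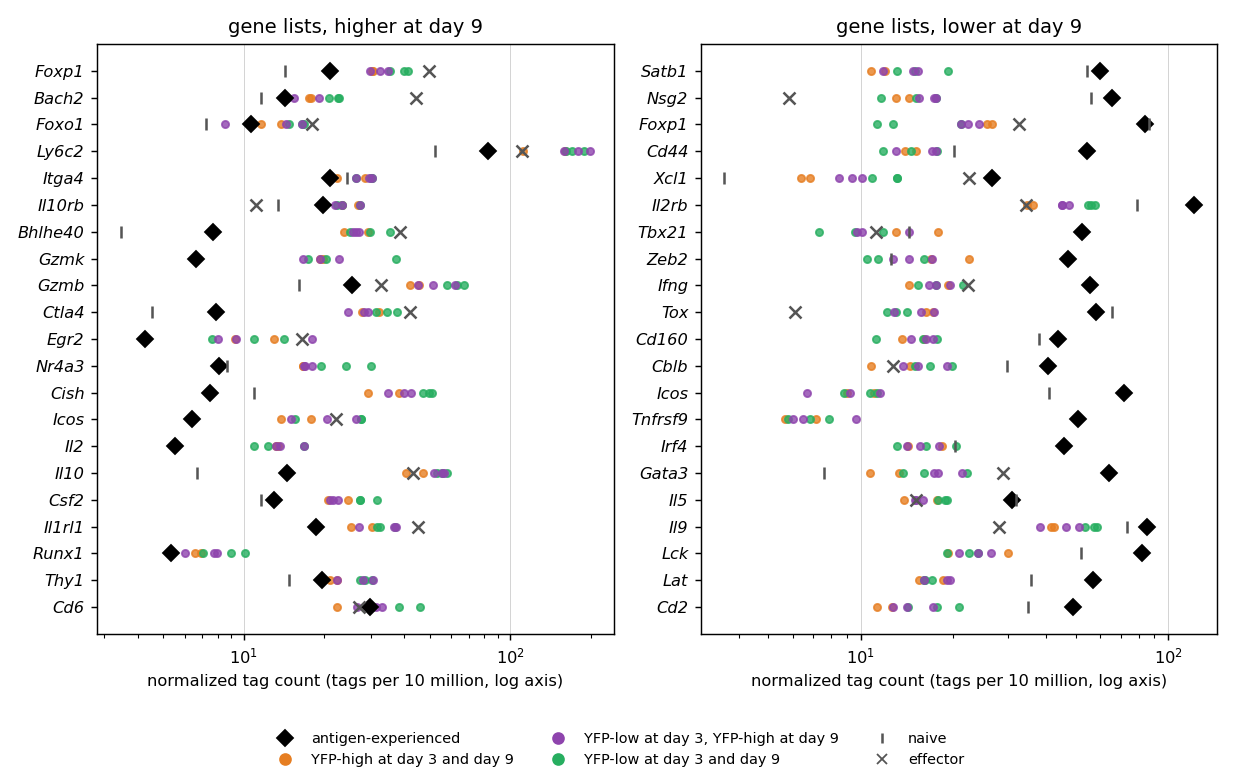
Normalized tag count (tags per 10 M tags, log axis) for up to 3 regions per direction in each of 7 gene lists, 1 per gene, chosen by the size of the difference. Symbols are as in the plot of the leading regions. Foxp1 and Icos appear in both panels. Calls were made on centred values, so in the left panel some uncentred day 9 points lie at or below the diamond (Foxo1, Cd6).

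Genes of interleukin-2 signalling went both ways. Over 95 regions near 23 genes of interleukin-2, STAT5 and activation 31 were higher and 36 lower. With median centring these range-rule counts (32.6% and 37.9%) were near those of all regions (26.6% and 37.6%). Without centring they were 15 and 55 (15.8% and 57.9%, against 8.86% and 66.5% of all). On the upper quartile they were 49 and 18 (51.6% and 18.9%, against 40.2% and 16.4% of all). With loess the list leaned higher by its median difference, 0.12 against -0.02 over all regions. Both upper-quartile shares, higher and lower, were nevertheless above those of all regions. Within them, Cish and Socs2, STAT5 target genes that restrain cytokine signalling, had 2 of 3 and 2 of 2 tested regions higher. The region 3449 bp from Cish (chr9:107306233-107306552) held 7.46 in the antigen-experienced library and 29.3, 41.2 and 50.7 at day 9 (difference 2.80, SD 0.17; limma adjusted p 1.85e-15). It held 10.9 in naive cells and had no peak in the effector library. A region 16553 bp from Il2ra, the alpha chain of the interleukin-2 receptor, was gained at 29.9, 35.7 and 40.6, and had no peak in any of the 3 other libraries. Near Il2 itself 1 region was gained and another held 5.54 against 10.9, 13.3 and 16.8 (difference 1.66, SD 0.27).

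Socs3, another feedback gene, had 3 of 3 lower, and Cd28 and Cd69, a costimulatory receptor and an early activation marker, had 6 of 7 and 5 of 8 lower. At Icos, the inducible costimulator, a region inside the gene went from 72.0 in the antigen-experienced library to 6.66, 9.955 and 11.5, with 41.0 in naive cells, and a region 39047 bp away from 6.39 to 13.8, 19.25 and 27.6, with 22.2 in effector cells. The differences were -2.28 (SD 0.26) and 1.99 (SD 0.31).

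Type 2 and other helper-type cytokine genes had 10 of 18 regions higher (55.6%, against 26.6% of all) and 3 lower (16.7%, against 37.6%). Their median difference was 0.49. Of 24 regions called in all 8 libraries 6 were gained (9.07% over all), and of 30 antigen-experienced regions 5 were lost (8.55% over all), so both kinds were in excess. With loess the median difference was 0.40 (-0.02 over all), and without centring 27.8% were higher and 44.4% lower, against 8.86% and 66.5% of all. Il10, which encodes a suppressive cytokine, had 3 of 3 higher and 1 gained, and the region 25863 bp from it held 14.5 against 40.7, 54.25 and 58.0 (difference 2.26, SD 0.15), with 6.66 in naive and 43.1 in effector cells. Il4 and Il13 had 1 of 1 higher each, Csf2 2 of 3 and Il1rl1, the interleukin-33 receptor, 2 of 2. Csf2 also had 2 lost regions, and Il1rl1 had 1 gained and 1 lost. Gata3, the type 2 master regulator, had 1 region lower, at 64.1 against 10.7 to 22.1, 1 higher, 1 gained and 1 lost.

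Among inhibitory receptor and exhaustion genes 25 of 69 regions were higher (36.2%, against 26.6% of all) and 31 lower (44.9%, against 37.6%). The upper-quartile shares were 44.9% higher and 20.3% lower, against 40.2% and 16.4% of all. The loess median difference was 0.03, against -0.02 over all. Ctla4 had 5 of 7, Entpd1 (the ectoenzyme CD39) 6 of 8 and Tox2 4 of 4 higher. The region 33474 bp from Ctla4 held 7.88 against 24.7, 30.35 and 37.5 (difference 2.32, SD 0.15). Cblb, a ubiquitin ligase that limits activation, had 8 of 11 lower, Tox 6 of 10 and Btla and Nr4a1 3 of 3. Pdcd1, the gene of PD-1, had 3 of 4 lower. The list's names alone therefore gave no single direction.

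AP-1 and BATF family genes had 19 of 36 regions lower (52.8%, against 37.6% of all) and 7 higher (19.4%, against 26.6%), with a median of -0.35. Without centring 77.8% were lower and 8.33% higher, against 66.5% and 8.86% of all. On the upper quartile 44.4% were lower and 30.6% higher, against 16.4% and 40.2% of all. With loess the median difference was -0.19 (-0.02 over all). Of 44 regions called in all 8 libraries 8 were gained (9.07% over all), and of 54 antigen-experienced regions 3 were lost (8.55% over all). By these small counts one-sided regions leaned the other way. However, the gained regions near Atf3 and Fosl2 lay only 220 and 233 bp from an antigen-experienced peak. For the one inside Fosb this distance was 1610 bp. Fos had 6 of 8 lower. Batf3 was the exception, with 3 of 3 higher and 1 gained. Cell cycle genes had 12 of 34 higher (35.3%, against 26.6% of all) and 8 lower (23.5%, against 37.6%). Cdk6, a kinase of the first gap phase, led with 7 of 9 tested regions higher and 5 gained. Inside Cdk6 a region held 8.52 against 21.8, 29.1 and 36.1 (difference 2.12, SD 0.14), and near Cdkn2a, a cell cycle inhibitor locus, another held 8.95 against 15.5, 18.3 and 23.3 (difference 1.48, SD 0.06). Without centring 20.6% of cell cycle regions were higher and 55.9% lower, against 8.86% and 66.5% of all. With loess their median difference was 0.20, against -0.02 over all regions. Glycolysis genes had 10 of 45 higher (22.2%, near the 26.6% of all) and 20 lower (44.4%, against 37.6%). Of their 54 regions called in all 8 libraries 9 were gained (9.07% over all), 4 of them at Hk2, a hexokinase gene, and of 61 antigen-experienced regions 1 was lost (8.55% over all). On the upper quartile 37.8% were higher and 8.89% lower, against 40.2% and 16.4% of all. With loess the median difference of glycolysis regions was -0.04, close to the -0.02 over all. Of adhesion and homing genes, 19 of 70 regions were higher (27.1%, against 26.6% of all) and 30 lower (42.9%, against 37.6%). Centred on the upper quartile, 44.3% were higher and 25.7% lower, against 40.2% and 16.4% of all. Itga1, an integrin of tissue-resident cells, had 3 of 4 higher and Tgfbr2 8 of 13 lower. With loess the median difference of this list was 0.02, close to the -0.02 over all. Both of its upper-quartile shares, higher and lower, were above those of all regions.

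**Figure D4:**
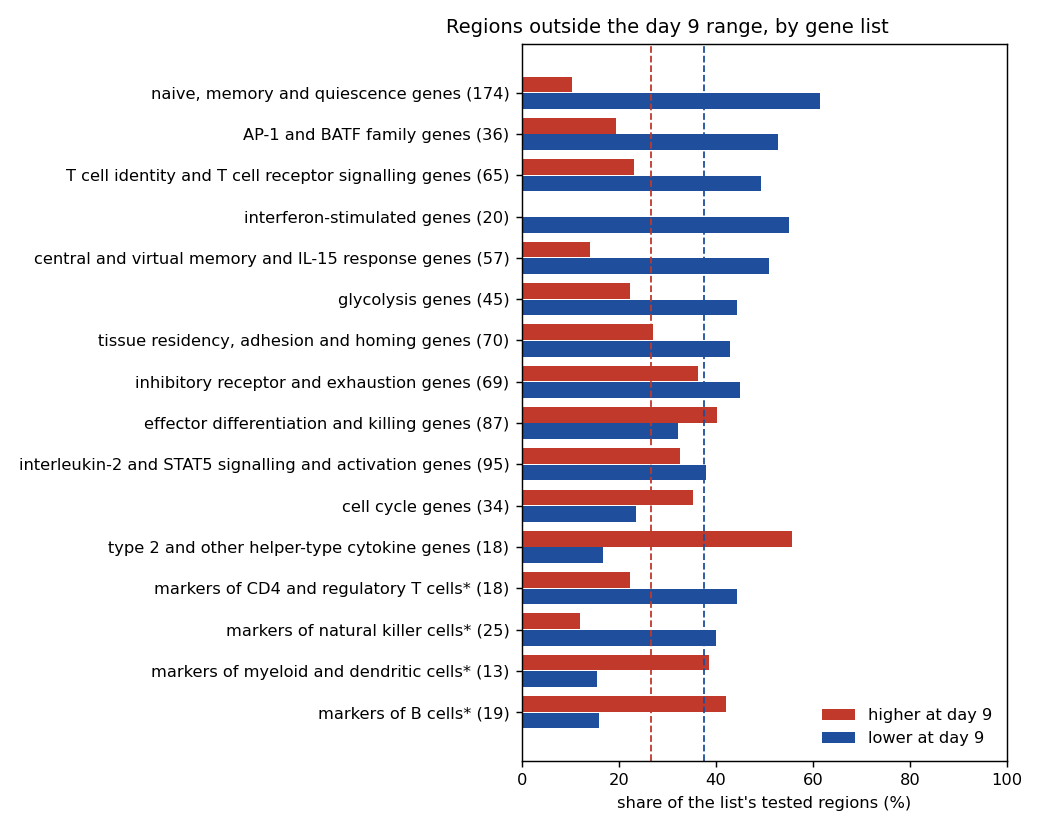
Share of each gene list's tested regions (number in brackets) that were higher (red) or lower (blue) at day 9. Dashed lines are the shares over all 31266 regions, 26.6% higher and 37.6% lower, and starred lists are markers of other cell types. With this median centring the naive, memory and quiescence list has the highest blue bar, and the type 2 cytokine list the highest red bar.

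Markers checked the label and the purity of the cells. All 10 T cell and CD8 markers examined had a peak inside the gene in the antigen-experienced library and 7 to 9 did in each day 9 library, with summed values of 1636 and 497.3 to 813.3. Inside Cd8a the antigen-experienced library held 43.0, and 1 of the 8 day 9 libraries had a peak. Of B cell markers 8 of 12 had a peak inside the gene in the antigen-experienced library (summed value 295.4) and 7 to 9 at day 9 (222.1 to 384.8), while Cd79a and Ms4a1 had none in any of the 9. Of their 19 tested regions 8 were higher (42.1%, against 26.6% of all) and 3 lower (15.8%, against 37.6%) at day 9. The higher ones were led by Blk (6.39 against 19 to 30.6). Without centring 2 were higher and 7 lower (10.5% and 36.8%, against 8.86% and 66.5% of all). The part of B cell markers in the other results was not tested. Myeloid markers had peaks in 7 of 12 genes (259.1) and in 6 to 8 at day 9 (150.2 to 220.6), with none inside Lyz2, Csf1r or Adgre1. Natural killer markers had 3 of 10 on both sides (137.0 against 90.9 to 171.2), with none inside Ncr1. Scaled to the sum of all listed values of a library (parts per M of that sum), all 8 day 9 libraries lay above the antigen-experienced one for B cell markers (240.0 to 309 against 188) and for natural killer markers (97.3 to 159 against 87.1). They lay below it for T cell and CD8 markers (553 to 754 against 1040) and for CD4 and regulatory T cell markers (176 to 229 against 268). Before scaling, Ebf1, Blk and Bank1 were higher than in the antigen-experienced library in all 8, and Pax5, Cd22, Cr2, Spib and Cd79b lower. The natural killer values came from Eomes, Nfil3 and Fcer1g alone, and Eomes is also in the central memory list. Which cells gave these values was not tested. CD4 and regulatory T cell markers had 7 of 8 (421.9) and 5 to 7 (164.3 to 235.4). Foxp3 held 4.26 in the antigen-experienced library and 0 to 3.82 at day 9. Erythroid markers had 2 of 7 (99.7) and 2 to 3 (52.07 to 78.74), with none inside the globin genes listed.

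With median centring promoters and distal sites differed in direction. Of 8060 regions within 1 kb of a listed gene start 674 were higher (8.36%) and 5118 lower (63.5%), and of 17718 regions over 10 kb away 6096 were higher (34.4%) and 4855 lower (27.4%). Promoter regions are among the strongest, so the comparison was repeated within levels. In the strongest of the 4 bins 1.78% of promoter regions and 14.6% of those over 10 kb away were higher, and 78.6% and 55.7% lower. With loess, limma called 5.36% of promoter regions higher and 6.22% lower, and 19.6% and 11.1% of those over 10 kb away. Without centring both kinds were mostly lower, at 87.4% near starts and 57.4% over 10 kb away, with 2.17% and 12.1% higher. With loess the higher and lower shares near starts were close, and the share of higher calls was smaller near starts than far from them. On the X chromosome, with 618 tested regions, 16% were higher and 45.5% lower.

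Regions present on one side only were fewer. Of the 34383 regions with a peak in all 8 day 9 libraries 3117 had none in the antigen-experienced library (9.07%), and of that library's 50164 regions 4290 had none in any of the 8 (8.55%). A missing peak is not a closed site: the lowest values of the 9 lists stood for 8.0 to 13.5 tags, and a filter on local signal removed 46.4% of the antigen-experienced library's putative peaks and 36.4 to 49.9% of those at day 9. Restricted to values at least 2 times the lowest listed value of the libraries without a peak, 1537 were gained and 1871 lost.

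The strongest gained regions, ranked by the lowest day 9 value, were assigned to Aida, Slc26a3, Megf11, a predicted gene, Gpbp1, Ing1, Ttc39c, Glrp1, Pccb and Rab27a. Inside Megf11 (chr9:64564397-64564635) the day 9 libraries held 48.5, 58.95 and 65.9 and the effector library 28.6, with no antigen-experienced peak for 110571 bp. Near Slc26a3 they held 50.1, 53.2 and 59.1 and the effector library 16.8. At Ing1 a gained region (43.4 to 66.1) and a lost one (106.5 in the antigen-experienced library) lay 110 bp apart, so that the 2 calls are peaks in different places of 1 locus. The Tnfaip3 promoter shown above was alike. Tnfaip3 encodes A20, an inhibitor of NF-kB signalling, and its gained region held 37.3, 45.1 and 55.7 at day 9, 87.3 in naive and 27 in effector cells, 56 bp from a lost region of 102.7. In all, 297 gained regions (9.53%) and 746 lost ones (17.4%) lay within 500 bp of a peak of the other side. Without them 2820 gained and 3544 lost regions were left.

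Among the strongest lost regions were those at or near Ing1, Dad1, Tnfaip3, Pim1, Slc22a5, Lck, Kdm6b and Atf4. Their antigen-experienced values were 84.2 to 106.5, and their fold over the local background in that library was 4.21 to 6.8, against the caller's minimum of 4. Lck and Pim1 stood at 4.36 and 4.21. The gained regions had local folds from 4.47 to 40.75, with 32.22 to 40.75 near Slc26a3. Lost regions were most numerous at Runx2, with 12, and at Akap13, Nrip1, St6gal1 and Zfhx3, with 9 each. Runx2 and St6gal1 also had 7 of 13 and 3 of 4 tested regions lower.

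What else the classes shared was the libraries in which they were open. Regions higher at day 9 were called in the naive library in 87.4% of cases, against 95.2% of all tested regions, and those higher by at least 1 in 68.2%. In the effector library these shares were 69.4% and 68.2%, against 77.8% of all tested regions. Regions lower at day 9 were called in the naive library in 98.7% and in the effector library in 83.2% of cases. Higher regions were thus called less often in both libraries, and lower regions more often in both. The classes also differed in strength: the median antigen-experienced value was 11.1 in higher, 63.1 in lower and 28.3 in all tested regions. Of gained regions 33.4% had a peak in the naive and 50.6% in the effector library, against 89.6% and 75.4% of the regions called in all 8, and 33.3% had a peak in neither. Of lost regions 54.7% had a peak in the naive and 14.3% in the effector library, against 87.8% and 62.3% of the antigen-experienced library's regions. Gained regions thus included fewer naive than effector peaks and lost regions the reverse. Gained regions had a median day 9 value of 9.39, against 18.4 for the regions called in all 8. Lost regions had a median of 7.67 in the antigen-experienced library, against 18.5 for all its regions. These shares are descriptions of single libraries and were not matched for strength, whose part in them was not tested.

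**Figure D5:**
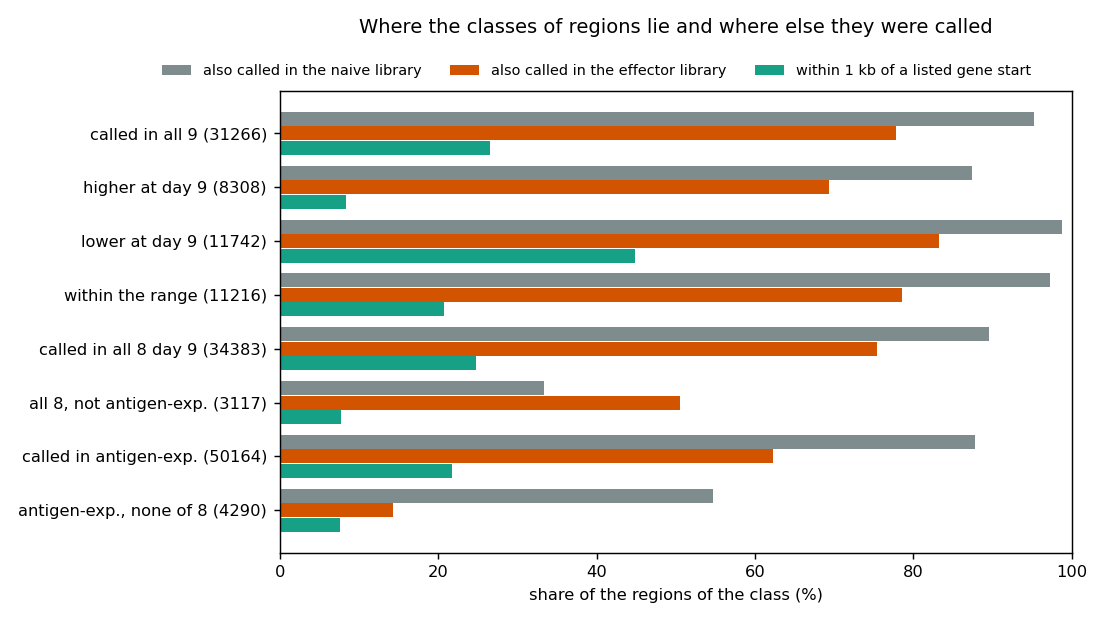
Share of the regions of each class (number in brackets) that also had a peak in the naive library (grey) or the effector library (orange), or whose centre lay within 1 kb of a listed gene start (green). Gained regions (all 8, not antigen-experienced) have a longer orange than grey bar, and lost regions (antigen-experienced, none of 8) a longer grey than orange bar.

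How near each day 9 library stood to the antigen-experienced one was measured in 3 ways. Regions held by both libraries as a part of those held by either (the Jaccard index) were 0.622 to 0.666 for the 8 day 9 libraries, 0.694 for the naive and 0.368 for the effector library, and 0.671 to 0.795 between day 9 libraries. YFP-high libraries had a mean of 0.642 ± 0.0167 (SD, n = 5) and YFP-low libraries 0.638 ± 0.0166 (SD, n = 3), which an exact two-sided permutation test did not separate (p = 0.821, adjusted over 3 measures 0.821). They held 78.8% ± 4.33 and 79.5% ± 3.73 of the antigen-experienced library's regions (exact permutation p = 0.821, adjusted 0.821). The median absolute difference over shared regions was 0.352 ± 0.0224 and 0.338 ± 0.0104 (exact permutation p = 0.321, adjusted 0.821). The smallest p this design allows is 0.0357. These tests do not use replicate numbers. In the 3 same-numbered pairs the Jaccard index was higher in low-to-high than in low-to-low libraries (0.666 against 0.657, 0.647 against 0.633 and 0.631 against 0.625), and the share of antigen-experienced regions was lower (79.5% against 80.7%, 77.6% against 82.6% and 74.4% against 75.4%). The labels do not say that these numbers pair libraries, and this pattern was not tested. Depth and the share of tags in peaks differ between these libraries, and the latter did not overlap between the YFP states (9.01 to 10.17% and 10.4 to 12.47%). By the mean of each group on the centred log2 scale, 2203 regions were over 2-fold higher and 450 over 2-fold lower in high-to-high libraries, 1923 and 489 in low-to-high and 1903 and 670 in low-to-low libraries, all against the same antigen-experienced library.

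Within day 9, limma called 222 of the 31266 regions different between YFP-high and YFP-low libraries, 217 of them higher in YFP-high. The 222 took in 83 of the 11742 regions lower than in antigen-experienced cells, 43 of the 8308 higher ones and 96 of the 11216 within the range. YFP-high libraries were nearer to the antigen-experienced value in 81 of the 83 and in 2 of the 43. Both counts follow from the shared direction of almost all calls, so they do not show which YFP state was nearer to antigen-experienced cells. The Foxp1 region at chr6:99486292-99486538 is one of the 81. The antigen-experienced library held 83.7, the high-to-high libraries 26.7 and 25.8, the low-to-high libraries 24.3, 21.1 and 22.3, and the low-to-low libraries 21.1, 11.3 and 12.7. YFP-high exceeded YFP-low by 0.95 on the centred log2 scale (limma adjusted p 0.000523), and the highest low-to-low value equalled the lowest low-to-high one as deposited, so the groups touched. Even the highest day 9 library lay far below the antigen-experienced one.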

How the data were processed

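The authors called peaks on each library alone with HOMER (4.10 per the submitters' processing notes). Per the file headers, the limits were 0.001 for the false discovery rate, 4-fold for the signal over 10 kb around a peak, and 1e-04 for the local Poisson p. The notes also name Bowtie2, DESeq2 and build mm10, without the role of DESeq2. The deposited signal is the normalized tag count, tags per 10 M tags per the file headers, and the deposited ratio is the fold over the local background. Each list covers peaks only, and library depth, 20.8 M tags at the lowest, limits what a list can hold.

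Regions were merged with a script checked against bedtools 2.31.1 (111041 regions by both). Differences were computed on log2(value + 1), centred on each library's median, which understates changes of low values. limma 3.58.1 in R 4.3.3 (eBayes with trend, Benjamini-Hochberg adjustment over 31266 regions) used 4 groups, with day 9 as the mean of its 3 groups, and was tested on simulated data. Regions took the nearest protein-coding gene within 100 kb in the RefSeq table of mm10, which does not show which gene they regulate. The promoter table listed a start for 79.9% of these genes. Named regions are the 10 largest per class, 1 per gene, the 5 genes with most regions per class, and up to 3 genes per direction of each of 17 lists. Predicted genes were left unnamed, and other genes were chosen after their values were seen. The members and lists were chosen with earlier results of these data known. Some named regions are not reported here.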

Additional observations from a re-analysis of the deposited data

Results flagged for a closer look

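Of 34 measures examined for a library apart from the other day 9 libraries, 1 stood out, where chance flags about 1 in 20. In the gained region inside Pccb, a carboxylase subunit gene, low-to-low replicate 2 held 58.9, with the next library at 47.1 and the lowest at 41.2.

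Of 108 named regions, 5 differed between YFP-high and YFP-low day 9 libraries by limma, over and above their difference from the antigen-experienced library. All 5 were lower at day 9 than in antigen-experienced cells and higher in YFP-high than in YFP-low libraries. The differences on the centred log2 scale were 0.77 inside Ube2d1 (adjusted p 0.00931), 0.95 inside Foxp1 (adjusted p 0.000523), 0.68 near Tbx21 (adjusted p 0.0356), 0.65 inside Zeb2 (adjusted p 0.0113) and 0.99 near Cd40lg (adjusted p 0.000457). At Cd40lg, the gene of the CD40 ligand, the antigen-experienced library held 35.2, the YFP-high libraries 10.1, 10.6, 13.6, 12.1 and 8.4, and the low-to-low libraries 5.78, 7.41 and 4.94. At Tbx21 the 5 YFP-high libraries held 9.75 to 17.8 and the low-to-low libraries 11.8, 9.56 and 7.3, so that the deposited values of the YFP states overlapped.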

How the results depend on the processing

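The range rule called 20050 regions. Without centring it called 2770 higher and 20778 lower, on the upper quartile 12559 and 5126, and by at least 1 beyond the range 1180 in all (1024 and 156). With values of at least 10 in all 9 libraries it called 11556 of 20561, 5975 of them lower. A pseudocount of 0.1 or 5, sums of peaks, merging the 9 libraries only, leaving out chromosome X and, chosen after seeing the data like the latter, centring on regions over 1 kb from a listed start (6217 higher, 7900 lower of 22334) kept both counts within 1.5 times. One-sided regions numbered 7407 in all and 3408 with values at least 2 times the lowest listed value (1537 gained, 1871 lost). Gained regions were 4842 with 7 of 8 libraries and 1996 at a local fold of at least 6. limma called 11461 regions, 20707 without centring (1909 higher, 18798 lower), 2993 lower with loess, 173 once the fit held each library's share of tags in peaks (106 and 67) and 5002 with values of at least 10 (3299 and 1703). Without trend the share of higher calls was 56.5%, against 46.6%.

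Leaving out each day 9 library gave 20425 to 20766 range calls (8491 to 8582 higher, 11925 to 12197 lower), 7700 to 8119 one-sided regions (3155 to 3579 gained, 4388 to 4964 lost) and 10551 to 12205 limma calls (5093 to 5428 higher, 5444 to 6811 lower). With a replicate block limma called 4887 higher and 4985 lower. Range calls and one-sided regions can only grow when a library is left out, so their counts above could not have fallen. The labels do not say that a number pairs libraries. Same-numbered high-to-high and low-to-low libraries did not deviate together (r -0.013 and -0.0416), while the 3 same-numbered pairs of low-to-low and low-to-high did (r 0.256, 0.127 and 0.125), each library being nearest to its own number, a hint from the data and not from the design.

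The difference between YFP-high and YFP-low libraries in the Jaccard index was 0.00349, -0.00328 to 0.0128 with each library left out and -0.00283 over the 40000 strongest peaks, with the sign turning without low-to-low replicate 3 (-0.00328) and low-to-high replicate 1 (-0.00248). In the share of regions it was -0.768 percentage points and -2.85 to 0.752 with each library left out, turning without low-to-low replicate 2 (0.752) and low-to-high replicate 3 (0.326). The median absolute difference was 0.0141 higher in YFP-high libraries, 0.00809 to 0.0238 with each left out, and 0.168 without centring (exact permutation p = 0.0357).

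Of 1560 recomputed values of 108 named regions, 1536 kept their call, 22 kept the direction only, and 2 turned without centring, Eno1 (-0.01) and Cd4 (-0.26). With each of the 8 day 9 libraries left out all 108 kept it, which was fixed in advance, since leaving 1 out can only narrow the range. Without centring 96 kept it and on the upper quartile 100. The regions were chosen for the size of their difference, so the total does not measure robustness. Depth and the local filter bear on the one-sided regions, and the antigen-experienced side has 1 library in every comparison. The cause of these shifts was not tested.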

Other observations

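Promoters of further genes outside the lists differed at day 9. The promoter region of Uchl1, a ubiquitin hydrolase gene, held 5.33 in the antigen-experienced library and 22.9 to 33.8 at day 9 (difference 2.67, SD 0.22), with 4.8 in naive and 21.6 in effector cells. That of P2ry1, a nucleotide receptor gene, held 5.11 against 14.6 to 24.7 (difference 2.27, SD 0.18). That of Nqo1, a quinone reductase gene, held 11.1 against 19.9 to 36.2 (difference 1.72, SD 0.21). The day 9 libraries lay above the antigen-experienced one at each, as the call required after centring. In the other direction, the promoter region of Bend5 held 40.5 against 5.78 to 9.5 (difference -1.76, SD 0.27), with 40.2 in naive cells. That of Mgmt, a DNA repair gene, held 49.0 against 9.3 to 15.8 (difference -1.46, SD 0.27), with 46.6 in naive cells, and that of Cnr2, a cannabinoid receptor gene, 65.6 against 12.0 to 25.1 (difference -1.39, SD 0.42), with 68.2 in naive and 3.57 in effector cells. These genes were chosen after their values were seen, and others with differences of like size are not named.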
